A study of Homo sapiens with 2 samples.

Results

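The comparison is between epithelial-state cells of the C1-sgEED line and epithelial-state cells of the C1-sgControl line. Both lines derive from C1, an epithelial derivative of HMLER, which are human mammary epithelial cells immortalised and transformed in culture with an oncogenic HRAS. By their labels, C1-sgEED cells carried a guide RNA against EED, C1-sgKMT2D cells one against KMT2D and C1-sgControl cells a control guide. All lines share the HMLER background and the same medium with insulin, EGF and hydrocortisone, and the titles call the cells mixed clones without giving the number of clones. The lines were stained with hashtag antibodies, each of which carries a DNA barcode, and were then run as 1 pooled droplet library with UMI counts (UMIs count captured RNA molecules). The pool also held barcodes of hashtag 2, which the labels tie to no line. Each line is therefore 1 sample and no test between lines was possible. The intervals below cover counting error only.

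The hashtag barcodes that set the line of each cell were, written 5′ to 3′:
C1-sgEED, hashtag 3: TTCCGCCTCTCTTTG
C1-sgKMT2D, hashtag 4: AGTAAGTTCAGCGTA
C1-sgControl, hashtag 1: GTCAACTCTTTAGCG

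A barcode was given a hashtag where its top hashtag had at least 150 UMIs and at least 10 times the next one. This held for 9278 of 10336 barcodes, of which 7268 belonged to the 3 lines and 2010 to hashtag 2. Cells with at least 500 genes and at most 20% of UMIs from mitochondrial genes were kept. Each cell was then scored by V, the share of VIM in the summed UMIs of VIM, KRT5, KRT17, S100A14 and SFN, where that sum was at least 5. VIM encodes vimentin, the intermediate filament of mesenchymal cells, and the other 4 genes are epithelial. Cells with V of at most 0.5 are called epithelial-state. They were 1252 of 2316 scored C1-sgEED cells, 1360 of 2307 C1-sgKMT2D cells and 1713 of 1713 C1-sgControl cells, out of 8257 scored cells in all, of which 1921 were of hashtag 2. In C1-sgEED, 10 cells lay just inside the bound (V from 0.45) and 6 just outside it (V up to 0.55). The highest V in C1-sgControl was 0.4375.

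Polycomb repressive complex PRC2 cannot work without EED. This subunit binds methylated lysine 27 of histone H3 and stimulates the methyltransferase EZH2, and the mark that results keeps developmental and other lineage genes silent. In breast epithelium, basal cells carry KRT5, KRT14 and KRT17, luminal cells carry KRT8 and KRT18, and mesenchymal cells lose these keratins and EPCAM. KMT2D, the target named for the third line, is a histone methyltransferase of enhancers.

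The epithelial-state cells held 6210734 UMIs in C1-sgEED, 9312203 in C1-sgKMT2D and 9943405 in C1-sgControl. The median was 4458 UMIs per cell in C1-sgEED and 5699 in C1-sgControl. The mitochondrial limit removed 5.81% of C1-sgEED barcodes and 25.5% of C1-sgControl barcodes. Within the epithelial state, median V was 0.0957 in C1-sgEED and 0.0745 in C1-sgControl, and 9.90% of C1-sgEED cells and 3.04% of C1-sgControl cells had V above 0.25. Levels below are CPM, that is UMIs summed over the cells of a group, scaled to the same total over all genes.

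The genes of V chose the cells, so their levels are a description only. KRT5, the basal type II keratin, was at 1763 CPM in C1-sgEED and 2361 CPM in C1-sgControl. KRT17 was at 6096 CPM in C1-sgEED and 7247 CPM in C1-sgControl, and VIM at 1333 CPM in C1-sgEED and 1149 CPM in C1-sgControl. In C1-sgEED cells over the bound, KRT5 was at 89.4 CPM and VIM at 7496 CPM. The levels of these genes follow from the rule. Outside V, the basal keratin KRT14 was at 560 CPM in epithelial-state C1-sgEED cells and at 60.7 CPM in C1-sgEED cells over the bound.

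The targeted gene does not check the labels here. EED itself had 124 UMIs in C1-sgEED and 135 UMIs in C1-sgControl, or 19.97 and 13.6 CPM, a ratio of 1.47 (95% interval 1.14 to 1.89). C1-sgKMT2D was at 14.8 CPM. A count of the 3′ end of a transcript does not show an edit further upstream. In C1-sgEED cells over the bound the EED level was 3.22 CPM, from 13 UMIs. EED transcript was thus not lower in the epithelial-state C1-sgEED cells, while it was lower in the cells over the bound. These counts do not show whether the epithelial-state C1-sgEED cells carry an edit of EED, so every C1-sgEED value below is that of the label and not of a verified loss of EED.

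Across genes, most levels lay close together. Of 5413 genes that reached 20 CPM in one line or both, C1-sgEED was 2-fold or more higher for 89 (1.64%) and 2-fold or more lower for 61 (1.13%), on log2(CPM + 1). The median log2 ratio was 0.08, and the 5th and 95th percentiles were -0.55 and 0.63. Centred on that median, 71 genes were higher and 78 lower, so at this filter the balance of directions rests on the scaling. With a filter of 10 CPM 173 genes were higher and 76 lower, and with 3 UMIs 580 and 143. The counts at these 2 filters were not centred. Counting intervals lay wholly past 2-fold for 47 of the higher and 31 of the lower genes. When all 2316 C1-sgEED cells were set against the same control cells, 192 of 5521 genes were higher and 156 lower.

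**Figure D1:**
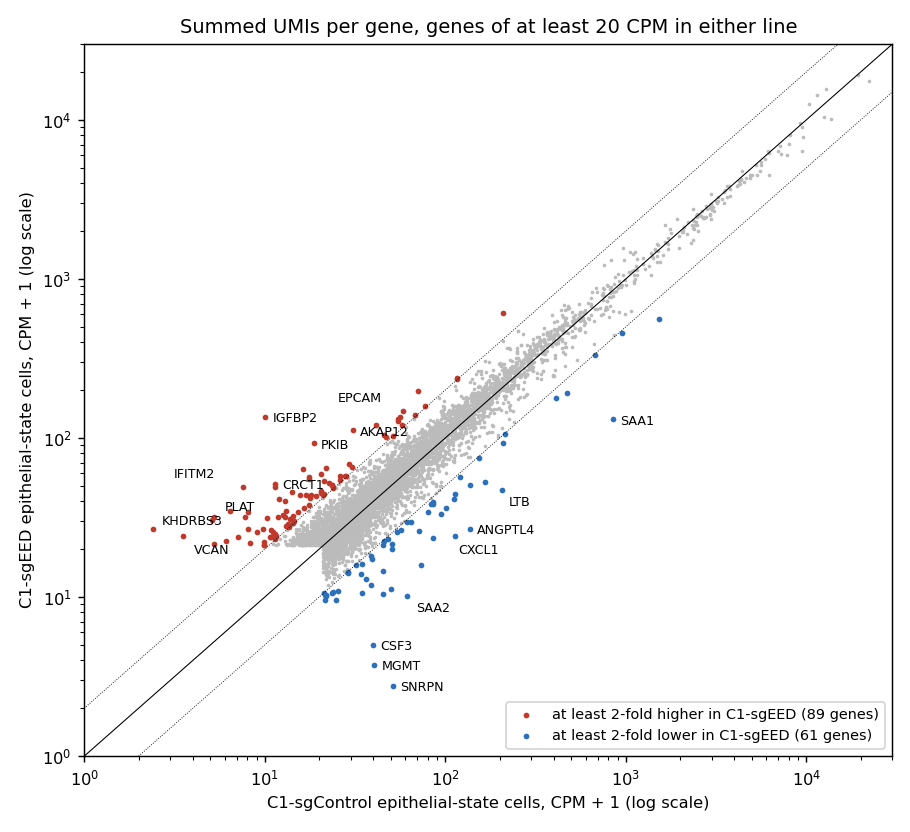
Each point is 1 gene that reached 20 CPM in one line or both, with its level in C1-sgEED epithelial-state cells (vertical, CPM + 1, log scale) against C1-sgControl epithelial-state cells (horizontal, same scale). The dotted lines mark 2-fold, with 89 genes above and 61 below, and SNRPN and MGMT stand lowest in C1-sgEED.

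SNRPN and MGMT were close to absent in epithelial-state C1-sgEED cells and present in C1-sgEED cells over the bound, C1-sgKMT2D and C1-sgControl. SNRPN (chr15:24823637-24978723, GENCODE v29, GRCh38) is an imprinted gene, transcribed from the paternal allele in most tissues, that encodes a small nuclear ribonucleoprotein. It had 11 UMIs in C1-sgEED, 578 in C1-sgKMT2D and 500 in C1-sgControl, or 1.77, 62.1 and 50.3 CPM. That is 28.4-fold lower in C1-sgEED than in C1-sgControl (interval 15.7 to 57.2). MGMT (chr10:129467184-129768007) encodes the repair enzyme that removes methyl groups from guanine. It had 17 UMIs in C1-sgEED, 346 in C1-sgKMT2D and 393 in C1-sgControl, or 2.74, 37.2 and 39.5 CPM, which is 14.4-fold lower in C1-sgEED than in C1-sgControl (interval 8.90 to 25.04). MGMT was also low in the epithelial-state cells of hashtag 2, at 0.869 CPM, while SNRPN was at 51.3 CPM there. No other gene that reached 20 CPM in C1-sgControl was under 3 CPM in C1-sgEED.

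The 2 genes behaved differently in the cells over the bound. SNRPN was at 2.48, 0 and 4.79 CPM in C1-sgEED cells with V of 0 to 0.1, 0.1 to 0.25 and 0.25 to 0.5. It was then at 63.0 CPM at V of 0.5 to 0.75 and 43.7 CPM at 0.75 to 1. MGMT was at 4.03, 0.848 and 3.19 CPM in the 3 lower ranges and at 10.5 and 19.4 CPM in the 2 higher ones. SNRPN in C1-sgEED cells over the bound was thus near the control level of 50.3 CPM, and MGMT, at 18.6 CPM, lay between. After each cell was thinned to 2000 UMIs, 0.25% of epithelial-state C1-sgEED cells had a SNRPN UMI, against 9.47% of C1-sgControl cells. For MGMT the shares were 0.667% in C1-sgEED and 7.82% in C1-sgControl. Whether the few UMIs left in C1-sgEED came from free RNA of the pool was not tested.

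**Figure D2:**
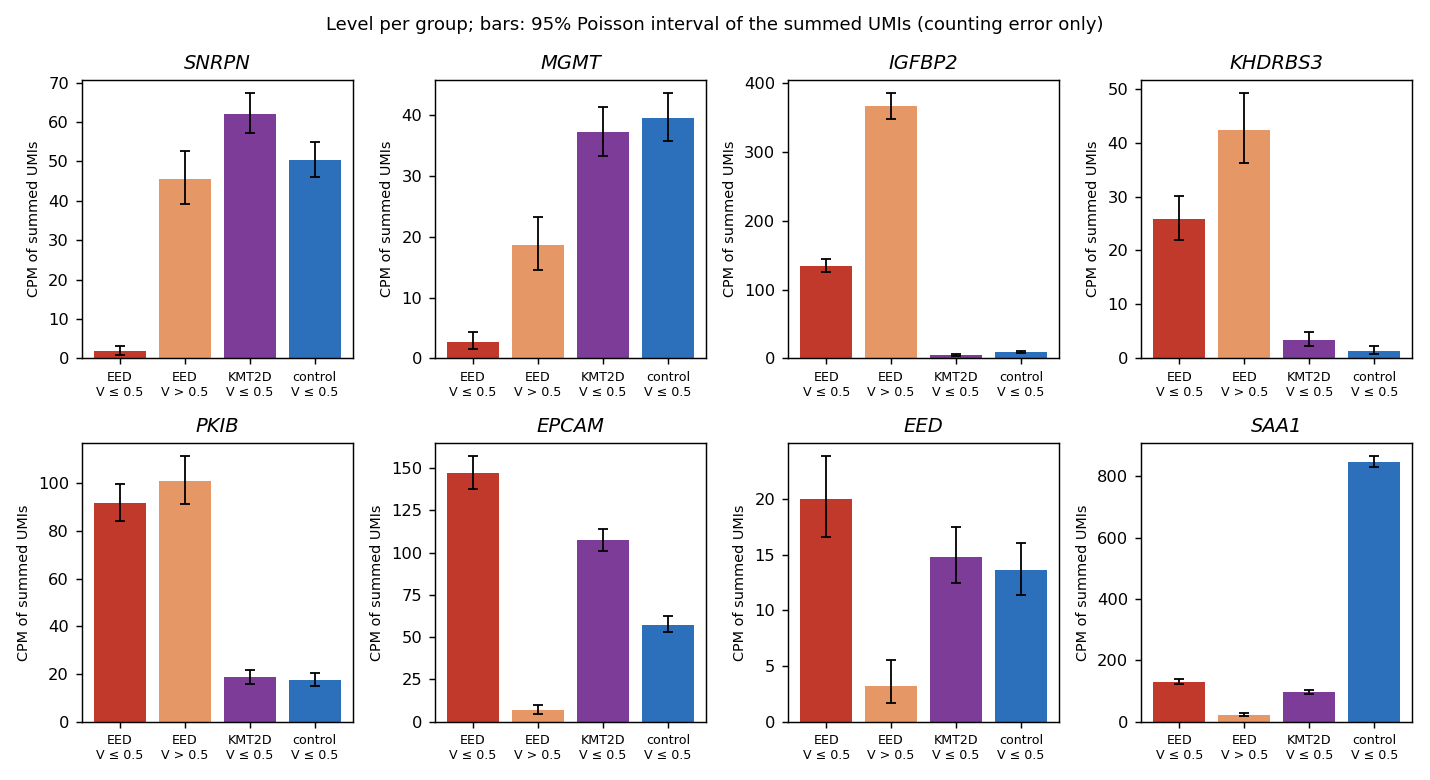
Bars give the CPM of summed UMIs for 8 genes in C1-sgEED cells with V of at most 0.5, C1-sgEED cells over the bound, C1-sgKMT2D and C1-sgControl cells with V of at most 0.5, with 95% Poisson intervals. SNRPN and MGMT are near 0 in the first group and higher in the other 3, and IGFBP2, KHDRBS3 and PKIB are high in both C1-sgEED groups.

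Among the genes beside them, PWAR6, 53150 bases from SNRPN, shared the low level. UBE3A, 355005 bases from SNRPN, and GLRX3, beside MGMT, did not. UBE3A, downstream of SNRPN on chromosome 15 and imprinted in neurons, was at 45.2 CPM in C1-sgEED and 46.5 CPM in C1-sgControl. PWAR6, a non-coding transcript downstream of SNRPN, had 1 UMI in C1-sgEED against 6.84 CPM in C1-sgControl, a ratio of 0.0235 (interval 0.000588 to 0.136). GLRX3, the measured neighbour of MGMT on chromosome 10, was at 235 CPM in C1-sgEED and 211 CPM in C1-sgControl. SNURF, which shares transcripts with SNRPN, had 0 UMIs in C1-sgEED and 1 UMI in C1-sgControl, and 3 UMIs in C1-sgEED cells over the bound. Whether reads of SNURF were counted under SNRPN was not tested.

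Promoter windows of the 2 lowest genes and of the highest gene are shown for their density of CpG, the dinucleotide that DNA methylation uses. They are the 250 bases before the RefSeq start on GRCh38.p14, plus strand, with each CG in capitals:
MGMT, chr10:129466991-129467240: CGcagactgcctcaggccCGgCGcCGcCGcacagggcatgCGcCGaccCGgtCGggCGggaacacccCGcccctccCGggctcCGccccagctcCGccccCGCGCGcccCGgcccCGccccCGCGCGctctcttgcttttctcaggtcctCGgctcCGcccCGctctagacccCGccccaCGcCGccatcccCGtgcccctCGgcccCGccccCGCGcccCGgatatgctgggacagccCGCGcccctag
SNRPN, chr15:24856321-24856570: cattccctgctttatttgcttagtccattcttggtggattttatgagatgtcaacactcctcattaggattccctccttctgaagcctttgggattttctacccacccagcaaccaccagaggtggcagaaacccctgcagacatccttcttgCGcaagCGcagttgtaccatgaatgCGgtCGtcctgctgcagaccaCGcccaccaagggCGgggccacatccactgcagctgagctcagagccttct
IGFBP2, chr2:216632578-216632827: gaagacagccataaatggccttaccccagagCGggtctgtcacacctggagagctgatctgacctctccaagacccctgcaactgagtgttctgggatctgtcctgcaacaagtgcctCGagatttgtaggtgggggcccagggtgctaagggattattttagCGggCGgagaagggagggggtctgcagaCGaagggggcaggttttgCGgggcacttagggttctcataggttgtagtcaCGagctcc
MGMT has 36 CG in these bases, SNRPN 6 and IGFBP2 7. In the full 300 bases of each window, from 250 before to 50 after the start, the counts were 45, 7 and 8. Of 27305 promoters in the table, 3.39% held at least as many as MGMT, 62.5% at least as many as SNRPN and 60.1% at least as many as IGFBP2. The SNRPN window covers 1 upstream start of the gene, which lies well before the start of SNURF at base 24954986 (GENCODE v29, GRCh38), and its counts describe that start alone. The IGFBP2 window ends just before base 216632828, the first base of that gene, and its counts likewise describe that start alone. Other starts of IGFBP2 were not examined. SNRPN has further start sites, and these data measure neither methylation nor histone marks.

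IGFBP2 and KHDRBS3 had the highest log2 ratios over C1-sgControl, and PKIB had the seventh. IGFBP2 (chr2:216632828-216664436) encodes a secreted binding protein for insulin-like growth factors. It had 839 UMIs in C1-sgEED, 47 in C1-sgKMT2D and 90 in C1-sgControl, or 135, 5.05 and 9.05 CPM, 14.9-fold higher in C1-sgEED than in C1-sgControl (interval 11.997 to 18.8). KHDRBS3, an RNA-binding protein, had 160 UMIs in C1-sgEED, 32 in C1-sgKMT2D and 14 in C1-sgControl, an 18.3-fold higher level in C1-sgEED than in C1-sgControl (interval 10.6 to 34.2). PKIB, an inhibitor of protein kinase A, was at 91.8 CPM in C1-sgEED, 18.6 CPM in C1-sgKMT2D and 17.7 CPM in C1-sgControl. Epithelial-state cells of hashtag 2 also lay above C1-sgControl. IGFBP2 was at 29.99 CPM there against 9.05 CPM in C1-sgControl, PKIB at 42.7 against 17.7, and KHDRBS3 at 7.97 against 1.41. A UMI of IGFBP2 was found in 22.8% of thinned C1-sgEED cells, 1.23% of C1-sgKMT2D cells and 1.65% of C1-sgControl cells.

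These levels were not confined to C1-sgEED cells close to the bound. IGFBP2 in C1-sgEED was at 144, 126 and 123 CPM from the lowest to the highest range of V within the epithelial state, against 10.5, 6.36 and 6.94 CPM in C1-sgControl. PKIB was at 97.0, 87.8 and 79.8 CPM in C1-sgEED and 19.2, 14.5 and 20.8 CPM in C1-sgControl. KHDRBS3 was at 23.6, 26.3 and 35.1 CPM in C1-sgEED. Over the bound, C1-sgEED cells had 367 CPM of IGFBP2, 101.02 CPM of PKIB and 42.3 CPM of KHDRBS3. The genes around IGFBP2 on chromosome 2 stayed near their control levels: RPL37A was at 2447 CPM in C1-sgEED and 2491 CPM in C1-sgControl, and XRCC5 at 279 and 233 CPM.

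**Figure D3:**
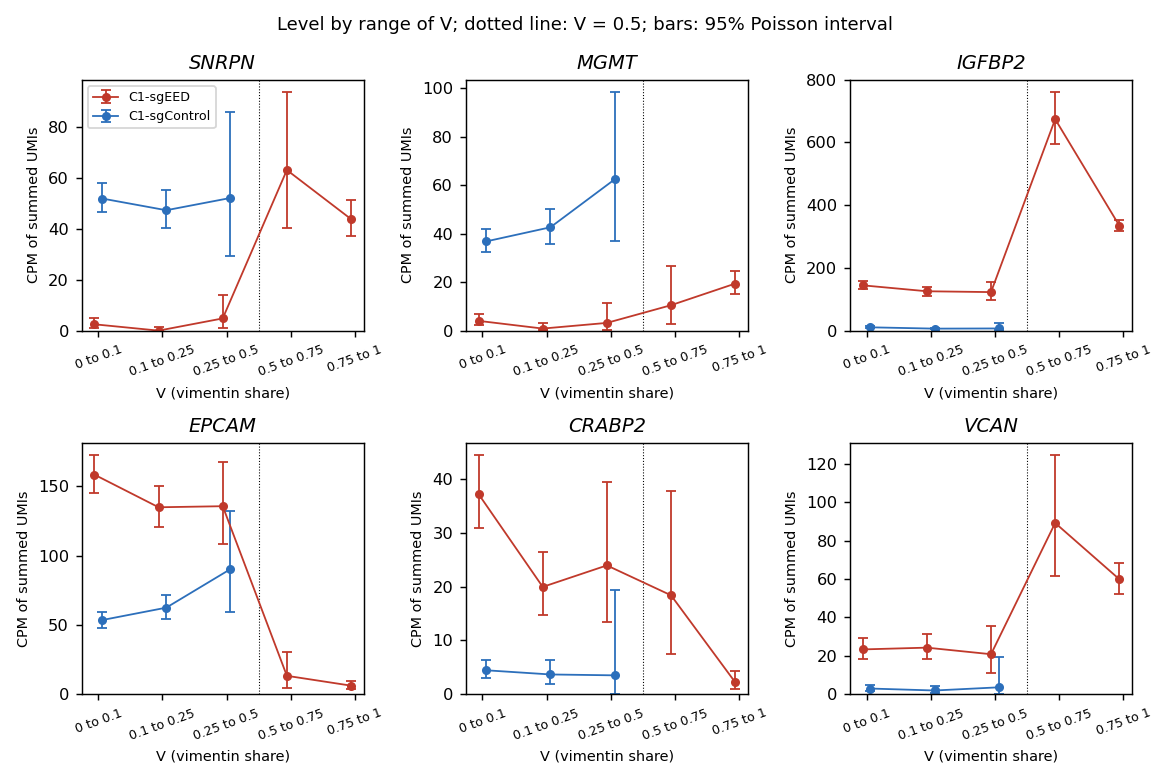
Points give the CPM of 6 genes in C1-sgEED and C1-sgControl cells by range of V (horizontal, from epithelial to mesenchymal), with 95% Poisson intervals. The dotted line marks V of 0.5, C1-sgControl has no cell beyond it, and SNRPN and MGMT in C1-sgEED stay under 5 CPM on its left.

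The remaining genes of the 15 highest fall into several roles. VCAN, the matrix proteoglycan versican, was at 23.3 CPM in C1-sgEED, 16.1 CPM in C1-sgKMT2D and 2.51 CPM in C1-sgControl. PLAT, the tissue plasminogen activator, was at 31.1 CPM in C1-sgEED, 5.05 CPM in C1-sgKMT2D and 4.22 CPM in C1-sgControl. CRABP2, which carries retinoic acid to the nucleus, was at 29.3 CPM in C1-sgEED, 0.644 CPM in C1-sgKMT2D and 4.12 CPM in C1-sgControl. The interferon-induced IFITM2 was at 48.1 CPM in C1-sgEED, 20.7 CPM in C1-sgKMT2D and 6.54 CPM in C1-sgControl.

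Signalling and nuclear genes made up the rest. AKAP12, a scaffold for protein kinases A and C, was at 111 CPM in C1-sgEED, 15.2 CPM in C1-sgKMT2D and 29.8 CPM in C1-sgControl. DUSP2, a phosphatase of MAP kinases, was at 48.1 CPM in C1-sgEED and 10.5 CPM in C1-sgControl, and the neuropeptide gene NPW at 63.1 and 15.4 CPM. The transcription factor genes MEIS3 and HES4 were at 30.9 and 40.1 CPM in C1-sgEED, against 6.74 and 11.1 CPM in C1-sgControl. H2AFY2, which encodes a macroH2A histone, was at 21.6 CPM in C1-sgEED and 5.13 CPM in C1-sgControl. In C1-sgEED cells over the bound CRABP2 was at 3.71 CPM, whereas the lowest of the other genes in these paragraphs, H2AFY2, was at 17.1 CPM there.

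CRCT1 and CNFN, both genes of the cornified layer, rested on a few cells. CRCT1 was at 50.4 CPM in C1-sgEED and 10.5 CPM in C1-sgControl, but 10 cells held 93.6% of its C1-sgEED UMIs, and 1 cell held 162 of 313. Without the 10 highest cells of each line it was at 3.22 CPM in C1-sgEED and 2.01 CPM in C1-sgControl. CNFN was at 33.2 CPM in C1-sgEED and 7.04 CPM in C1-sgControl, and without its 10 highest cells at 8.05 and 5.03 CPM. Shares of thinned cells with a CNFN UMI were 1.92% in C1-sgEED and 1.71% in C1-sgControl.

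CSF3, SAA1 and SAA2 came next after SNRPN and MGMT among the 15 lowest genes. SAA1, an acute-phase protein, had 810 UMIs in C1-sgEED, 908 in C1-sgKMT2D and 8417 in C1-sgControl, or 130, 97.5 and 846 CPM, 6.49-fold lower in C1-sgEED than in C1-sgControl (interval 6.04 to 6.98). SAA2, its close copy, was at 9.18 CPM in C1-sgEED and 60.7 CPM in C1-sgControl, and reads of the 2 copies may be split between them. A SAA1 UMI was found in 17.4% of thinned C1-sgEED cells, 4.34% of C1-sgEED cells over the bound and 63.0% of C1-sgControl cells. CSF3, the granulocyte colony-stimulating factor, was at 4.03 CPM in C1-sgEED, 3.22 CPM in C1-sgKMT2D and 38.9 CPM in C1-sgControl. SAA1 and CSF3 were thus also low in C1-sgKMT2D, unlike SNRPN and MGMT.

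Further down the same ranking, LTB, which encodes lymphotoxin beta, was at 46.4 CPM in C1-sgEED, 15.1 CPM in C1-sgKMT2D and 205 CPM in C1-sgControl. IL1B, an early inflammatory cytokine, was at 51.7 CPM in C1-sgEED, 26.3 CPM in C1-sgKMT2D and 164 CPM in C1-sgControl, and the cytokine gene IL32 at 22.4, 5.05 and 84.3 CPM. CXCL1, a neutrophil chemokine, was at 23.3 CPM in C1-sgEED, 51.3 CPM in C1-sgKMT2D and 112 CPM in C1-sgControl. BIRC3, an inhibitor of apoptosis that NF-kB induces, was at 9.50 CPM in C1-sgEED, 28.3 CPM in C1-sgKMT2D and 44.0 CPM in C1-sgControl. The other 5 of the 15 were ANGPTL4 and EGLN3 (hypoxia-induced), CASP14 (a protease of cornification), TREM2 (a lipid receptor) and SERPINB2 (an inhibitor of plasminogen activators). ANGPTL4 was at 25.8 CPM in C1-sgEED, 16.9 CPM in C1-sgKMT2D and 135 CPM in C1-sgControl. In the same order CASP14 was at 14.97, 7.19 and 72.8 CPM, and TREM2 at 10.3, 4.94 and 49.2 CPM. EGLN3 was at 9.66, 6.87 and 33.6 CPM, and SERPINB2 at 10.9, 3.33 and 37.6 CPM. These 5 genes were thus also low in C1-sgKMT2D.

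Members of 34 gene lists were counted where they reached 10 CPM in one line or both, by 1.5-fold differences. Of all 7809 genes of that level, 7.38% were that much higher in C1-sgEED and 4.52% that much lower, with a median log2 ratio of 0.07.

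Inflammatory genes were lower in C1-sgEED than in C1-sgControl, and their summed levels were low in C1-sgKMT2D as well. Of 42 cytokine and NF-kB genes 26 reached that level, of which 17 were lower in C1-sgEED and 2 higher, with a median log2 ratio of -0.85. The inhibitors that NF-kB itself induces were among them: NFKBIA was at 244 CPM in C1-sgEED and 400 CPM in C1-sgControl, and TNFAIP3 at 40.3 and 111 CPM. SOD2 was at 91.6 CPM in C1-sgEED, 242 CPM in C1-sgKMT2D and 208 CPM in C1-sgControl. The higher genes were IL24, at 33.5 CPM in C1-sgEED and 14.3 CPM in C1-sgControl, and CXCL16, at 14.2 and 8.75 CPM.

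The summed CPM of the cytokine list was 1224 in C1-sgEED, 1367 in C1-sgKMT2D and 2280 in C1-sgControl. It was 1292, 1184 and 1029 in C1-sgEED over the 3 ranges of V from low to high, against 2251, 2318 and 2483 in C1-sgControl. The lower level thus appeared at each V. Of 24 acute-phase and antimicrobial genes 11 were measured, of which 7 were lower and 1 higher, with a median of -1.01. The list summed to 957 CPM in C1-sgEED, 1098 CPM in C1-sgKMT2D and 2195 CPM in C1-sgControl. C3, the complement component, was at 20.1 CPM in C1-sgEED and 44.5 CPM in C1-sgControl, S100A8 at 105 and 213 CPM, and S100A9 at 306 and 535 CPM. S100A7, the higher one, was at 18.0 CPM in C1-sgEED and 7.24 CPM in C1-sgControl.

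Many basal epithelial genes were lower in C1-sgEED, while simple and luminal genes went both ways. Of 24 basal genes outside V, 22 were measured. None was higher in C1-sgEED and 11 were lower, with a median of -0.58. The number of lower genes was 7 in cells of at least 5000 UMIs and 6 in cells with less than 0.1% of UMIs in the G2/M list. KRT14, the partner of KRT5, was at 560 CPM in C1-sgEED, 638 CPM in C1-sgKMT2D and 1535 CPM in C1-sgControl. LAMB3 and LAMA3, laminin genes of the basement membrane, were at 446 and 284 CPM in C1-sgEED, against 862 and 457 CPM in C1-sgControl. COL17A1 and ITGB4, which anchor basal cells to the basement membrane in hemidesmosomes, were at 100.95 and 189 CPM in C1-sgEED, against 194 and 284 CPM in C1-sgControl. The basal transcription factor TP63 was at 13.5 CPM in C1-sgEED and 23.3 CPM in C1-sgControl.

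The basal list's summed CPM was 8400 in C1-sgEED, 9080 in C1-sgKMT2D and 11183 in C1-sgControl. It was 9203, 7932 and 6025 in C1-sgEED by rising V, against 11919, 9947 and 9139 in C1-sgControl, so it was lower in each range. KRT15 and KRT16 were not lower: they were at 673 and 367 CPM in C1-sgEED and 475 and 249 CPM in C1-sgControl. Among 24 simple and luminal genes 9 were measured, of which 4 were higher and 2 lower, and the median of -0.07 and the mean of 0.24 differ in sign. KRT8 was at 470 CPM in C1-sgEED, 286 CPM in C1-sgKMT2D and 253 CPM in C1-sgControl. AGR2, a secretory-pathway gene, was at 74.2, 29.6 and 47.5 CPM in the same order. The lower members were CD24, a surface glycoprotein, at 148, 66.3 and 227 CPM, and ALDH1A3, which makes retinoic acid, at 12.4, 2.90 and 21.7 CPM. KRT18, the partner of KRT8, was at 1570, 949 and 964 CPM, and the hair-type keratin KRT81 at 614, 190 and 209 CPM in the same order. Keratins have close copies, so their single levels are uncertain.

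EPCAM, an epithelial surface glycoprotein, was higher in C1-sgEED, while most junction genes differed by less than 1.5-fold. It had 914 UMIs in C1-sgEED, 1000 in C1-sgKMT2D and 571 in C1-sgControl, or 147, 107 and 57.4 CPM, 2.56-fold higher in C1-sgEED than in C1-sgControl (interval 2.31 to 2.85). By rising V it was at 158, 135 and 136 CPM in C1-sgEED, against 53.4, 62.3 and 90.2 CPM in C1-sgControl, and only 6.69 CPM in C1-sgEED cells over the bound. A UMI was found in 25.2% of thinned C1-sgEED cells, 1.55% of C1-sgEED cells over the bound and 9.72% of C1-sgControl cells. The tight junction claudin gene CLDN4 was at 91.9 CPM in C1-sgEED, 6.01 CPM in C1-sgKMT2D and 51.2 CPM in C1-sgControl.

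Of 36 junction and adhesion genes 31 were measured. These 2 were higher and 5 were lower, with a median of -0.13. CDH1, which encodes E-cadherin, was at 36.7 CPM in C1-sgEED, 22.0 CPM in C1-sgKMT2D and 65.9 CPM in C1-sgControl. CLDN1 was at 28.8 CPM in C1-sgEED and 63.8 CPM in C1-sgControl. The desmosome genes PKP1 and DSC3 were at 59.4 and 41.7 CPM in C1-sgEED, against 99.9 and 66.9 CPM in C1-sgControl. CDH1 in C1-sgEED, by rising V, was at 39.99, 33.9 and 30.3 CPM, against 70.5, 59.9 and 31.2 CPM in C1-sgControl. At V of 0.25 to 0.5 the 2 values were close, but this range held only 124 C1-sgEED and 52 C1-sgControl cells. So few cells do not show whether the lines were level there.

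Some mesenchymal genes were higher in C1-sgEED, at levels from 10.1 to 451 CPM. The summed level of the list, of which the fibronectin gene FN1 was the largest part, was nearly the same in both lines. Of 51 mesenchymal genes, VIM among them, 33 others were measured, of which 12 were higher in C1-sgEED and 2 lower, with a median of 0.33. The highest levels among the 12 were those of NNMT, a methyltransferase of nicotinamide, at 451 CPM in C1-sgEED, 480 CPM in C1-sgKMT2D and 267 CPM in C1-sgControl. CYR61, a matricellular YAP target, was at 235 CPM in C1-sgEED and 139 CPM in C1-sgControl, and THY1, a surface glycoprotein, at 120 and 56.3 CPM. COL6A2 and COL6A3, chains of collagen VI, were at 25.8 and 10.3 CPM in C1-sgEED, against 7.04 and 1.71 CPM in C1-sgControl. MGP, a calcification inhibitor of the matrix, was at 10.1 CPM in C1-sgEED and 1.61 CPM in C1-sgControl, and CTGF, also a YAP target, at 63.9 and 20.8 CPM. In C1-sgEED cells over the bound, COL6A2 was at 133 CPM, MGP at 647 CPM and CTGF at 351 CPM. Without VIM, the mesenchymal list summed to 5240 CPM in C1-sgEED, 3829 CPM in C1-sgKMT2D and 5187 CPM in C1-sgControl. By rising V the sum was 4930, 5290 and 6642 CPM in C1-sgEED, against 5052, 5504 and 4533 CPM in C1-sgControl. The sum was thus higher in C1-sgEED only at V of 0.25 to 0.5, a range with 52 C1-sgControl cells. FN1 alone made up 1988 CPM of the sum in C1-sgEED and 2516 CPM in C1-sgControl. These sums therefore depend largely on 1 gene that was lower in C1-sgEED, and they do not describe the other members.

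ZEB1 and COL3A1 had few UMIs, while other mesenchymal genes were abundant in both lines. ZEB1, a repressor of CDH1, had 7 UMIs in C1-sgEED and 6 UMIs in C1-sgControl, and COL3A1 28 and 7 UMIs, against 41.6 and 167 CPM in C1-sgEED cells with V of 0.75 to 1. FN1, the fibronectin gene, was at 1988 CPM in C1-sgEED and 2516 CPM in C1-sgControl, TPM2 at 581 and 572 CPM, and SPARC at 132 and 115 CPM. CDH11 and LOXL2 were the lower members, at 4.19 and 25.3 CPM in C1-sgEED and 10.6 and 55.5 CPM in C1-sgControl. Within C1-sgEED, COL6A2 was at 20.8, 27.6 and 44.7 CPM and COL3A1 at 1.24, 4.24 and 22.3 CPM by rising V, whereas VCAN was at 23.3, 24.2 and 20.7 CPM. Whether cells or free RNA of the state over the bound added to these levels was not tested.

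SDC2, a syndecan of the same list, was below the level for counting and is named after its values were seen. It had 47 UMIs in C1-sgEED, 8 in C1-sgKMT2D and 1 in C1-sgControl, a ratio of 75.2 over C1-sgControl (interval 12.9 to 3035). None of 9 measured EMT transcription factors differed by 1.5-fold. SNAI2 was at 58.9 CPM in C1-sgEED and 62.1 CPM in C1-sgControl, and TWIST1 at 10.6 and 9.05 CPM.

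**Figure D4:**
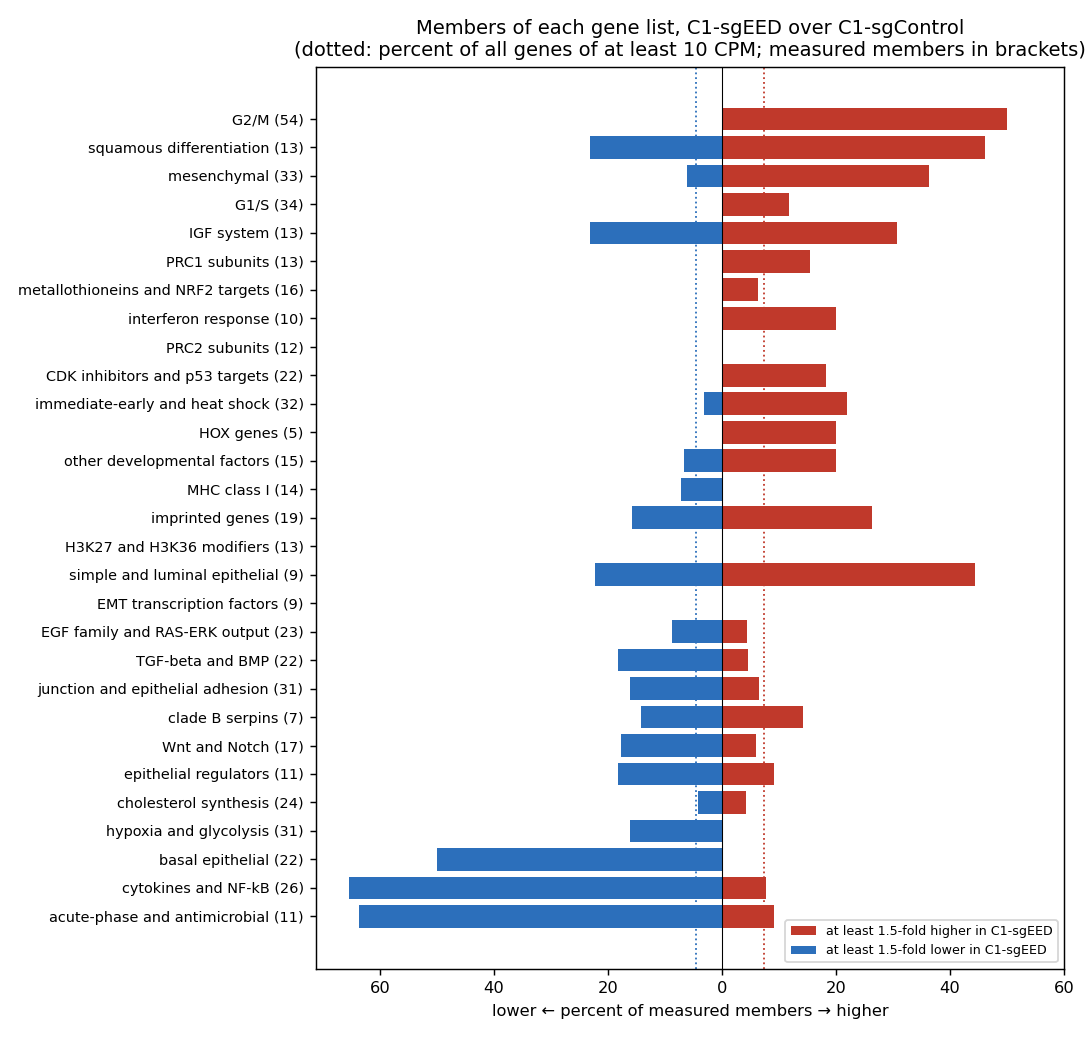
Bars give the percent of measured members of each list of at least 5 measured genes that were at least 1.5-fold higher (red, to the right) or lower (blue, to the left) in C1-sgEED, sorted by median log2 ratio. Dotted lines mark all genes of at least 10 CPM, 7.38% higher and 4.52% lower, and the G2/M list reaches 50% higher.

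Mitotic genes were higher. Of 55 G2/M genes 54 were measured, of which 27 were higher in C1-sgEED and none lower, with a median of 0.56, and 17 were higher once ratios were centred on the median gene. AURKB, the kinase of the chromosomal passenger complex, was at 67.9 CPM in C1-sgEED and 28.3 CPM in C1-sgControl, CCNB2 (cyclin B2) at 127 and 54.0 CPM, and CDK1, which cyclin B activates, at 99.8 and 45.8 CPM. Of thinned cells, 15.1% in C1-sgEED (exact interval 13.1 to 17.2), 14.1% in C1-sgKMT2D and 8.19% in C1-sgControl (6.91 to 9.63) had at least 20 of 2000 UMIs from this list. Among cells with less than 0.1% of UMIs in the list, which were chosen on the list itself, 1 member remained higher. Of 34 measured G1/S genes 4 were higher (11.8%, beside 7.38% of all genes) and none lower. Their median log2 ratio was 0.31, beside 0.07 for all genes. The G1/S list summed to 1617 CPM in C1-sgEED and 1263 CPM in C1-sgControl. NASP, 1 of the 4, was at 199 CPM in C1-sgEED and 114 CPM in C1-sgControl.

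The mitotic list was higher at higher V in both lines. Its summed CPM was 4022, 5332 and 5919 in C1-sgEED over the 3 ranges of V, against 2362, 4525 and 5549 in C1-sgControl. The lines thus lay furthest apart at V up to 0.1, which held 661 C1-sgEED and 1120 C1-sgControl cells. Of 22 measured CDK inhibitor and p53 genes, 4 were higher and none lower. GDF15, a stress-induced cytokine, was at 195 CPM in C1-sgEED and 69.4 CPM in C1-sgControl. Without the mitochondrial limit, which removed more C1-sgControl cells, 26 G2/M genes were higher.

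Imprinted genes went both ways. Of 53 listed, 19 were measured, of which 5 were higher in C1-sgEED and 3 lower, with a median of -0.04. MEG3, a maternally expressed non-coding RNA, had 747 UMIs in C1-sgEED, 331 in C1-sgKMT2D and 402 in C1-sgControl, or 120, 35.5 and 40.4 CPM. It was at 109, 134 and 126 CPM in C1-sgEED by rising V, against 38.1, 43.3 and 59.0 CPM in C1-sgControl. MEST was at 14.8 CPM in C1-sgEED and 5.83 CPM in C1-sgControl, TFPI2 at 93.9 and 48.3, GRB10 at 10.8 and 5.33, and INPP5F at 11.8 and 6.74. IGF2 was at 3.70 CPM in C1-sgEED, 1.18 CPM in C1-sgKMT2D and 13.5 CPM in C1-sgControl, and KCNQ1OT1 at 58.0 CPM in C1-sgEED and 58.4 CPM in C1-sgControl.

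The IGF system was also split, with 4 members higher and 3 lower of the 13 measured among 21. This list overlaps with the imprinted list, so the 2 are not separate observations. IGF2BP1, an RNA-binding protein that acts in fetal tissue, had 84 UMIs in C1-sgEED, 1 in C1-sgKMT2D and 5 in C1-sgControl, a ratio of 26.9 over C1-sgControl (interval 11.1 to 85.0). IGFBP4 was at 45.1 CPM in C1-sgEED and 13.1 CPM in C1-sgControl, and STC2 at 20.1 and 8.95 CPM. The receptor IGF2R, which is also in the imprinted list, was at 19.5 CPM in C1-sgEED and 34.7 CPM in C1-sgControl. The docking protein gene IRS2 was at 27.4 and 45.4 CPM.

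Polycomb genes and most developmental genes lay close to their control levels or under the level for counting. None of the 12 PRC2 genes measured among 15 differed by 1.5-fold: EZH2 was at 17.4 CPM in C1-sgEED and 14.3 CPM in C1-sgControl, and SUZ12 at 43.8 CPM in both. Of 13 PRC1 genes, BMI1 and PCGF5 were higher, at 16.4 and 27.05 CPM in C1-sgEED and 8.05 and 12.1 CPM in C1-sgControl, and both lie on chromosome 10. HOXB9 was the 1 higher gene of 5 measured HOX genes, at 12.2 CPM in C1-sgEED and 2.92 CPM in C1-sgControl, while 34 of 39 HOX genes were below 10 CPM in both lines. Of 102 other developmental factors, 87 were below that level, 3 were higher and 1 lower. The higher ones were HES4, MSX1 and NKX2-5, the last at 12.6 CPM in C1-sgEED and 7.14 CPM in C1-sgControl. HOX genes below 10 CPM were not counted, and some differed, from at most 43 UMIs each. HOXD11 was at 6.92 CPM in C1-sgEED and 1.31 CPM in C1-sgControl, HOXD10 at 3.06 and 0.302, and HOXA11 at 0.161 and 1.01. The whole HOX list summed to 152 CPM in C1-sgEED and 119 CPM in C1-sgControl, and the other developmental factors to 486 and 414 CPM. None of 13 measured H3K27 and H3K36 modifiers differed by 1.5-fold.

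Smaller groups followed. Of 31 hypoxia and glycolysis genes, 5 were lower and none higher, NDRG1 among them at 190 CPM in C1-sgEED and 469 CPM in C1-sgControl. Of 22 TGF-beta and BMP genes, 4 were lower and 1 higher. The lower ones included the activin antagonist FST, at 32.0 CPM in C1-sgEED and 93.1 CPM in C1-sgControl, and the activin chain INHBA, at 176 and 407 CPM. ID1, a BMP target and the higher one, was at 235 CPM in C1-sgEED, 281 CPM in C1-sgKMT2D and 114 CPM in C1-sgControl.

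Of 32 immediate-early and stress genes, 7 were higher and 1 lower. They included the orphan receptor NR4A1, at 45.6 CPM in C1-sgEED and 19.4 CPM in C1-sgControl, and CHAC1 and ASNS, targets of ATF4, at 17.2 and 64.2 CPM in C1-sgEED and 6.44 and 33.8 CPM in C1-sgControl. Wnt and Notch genes numbered 1 higher and 3 lower of 17, with the Wnt antagonist DKK1 at 131 CPM in C1-sgEED and 54.0 CPM in C1-sgControl. Squamous genes numbered 6 higher and 3 lower of 13. Among the higher ones CRCT1 and CNFN rested on few cells, as given above, and among the lower ones SPRR1B was at 49.9 CPM in C1-sgEED and 136 CPM in C1-sgControl.

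The other lists had at most 2 members that differed in either direction, so their shares rest on 1 or 2 genes each. The interferon list had 2 of 10 members higher (IFITM2 and ISG15), or 20% beside 7.38% of all genes, and MHC class I had 1 of 14 lower (TAPBP). Counts of higher and lower members were 1 and 2 of 23 for the EGF and RAS-ERK list (4.35% and 8.70%). They were 1 and 1 of 24 for cholesterol synthesis (4.17% each) and 1 and 0 of 16 for metallothioneins and NRF2 targets (6.25% higher). For clade B serpins they were 1 and 1 of 7 (14.3% each). For epithelial regulators they were 1 and 2 of 11 (9.09% and 18.2%), of which KLF5 and TP63 were the lower. Of all genes of at least 10 CPM, 7.38% were higher and 4.52% lower. The cancer-testis list had 1 measured gene, BEX2, at 21.3 CPM in C1-sgEED and 8.85 CPM in C1-sgControl.

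Few markers of other cell types reached 10 CPM in either line: 1 of 20 immune, 1 of 12 endothelial, 1 of 16 neural and 3 of 14 fibroblast markers. The endothelial and fibroblast sums were higher in C1-sgEED. Of 20 immune markers, 10 had no UMI in either line, PTPRC and CD3E among them, and the summed level was 23.2 CPM in C1-sgEED and 22.9 CPM in C1-sgControl, of which CD68 made up 18.999 CPM in C1-sgEED and 19.7 CPM in C1-sgControl. The endothelial list summed to 35.6 CPM in C1-sgEED and 12.8 CPM in C1-sgControl, of which EGFL7 made up 33.8 CPM in C1-sgEED and 12.2 CPM in C1-sgControl, with CDH5 and CLDN5 at 0. The neural list summed to 54.6 CPM in C1-sgEED and 41.5 CPM in C1-sgControl, with MBP, the 1 measured member, at 37.0 CPM in C1-sgEED and 32.9 CPM in C1-sgControl. Fibroblast markers summed to 164 CPM in C1-sgEED, 56.4 CPM in C1-sgKMT2D and 80.5 CPM in C1-sgControl, of which THY1 made up 120 CPM in C1-sgEED and 56.3 CPM in C1-sgControl, with TCF21 and CXCL12 at 0. THY1 is also in the mesenchymal list, and the part of these markers in the results was not tested.

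By position, chromosome 10 stood highest. The median log2 ratio of its 205 measured genes was 0.28, against 0.18 for the next, chromosome 19, and -0.08 for the lowest, chromosome 13. Of its genes 11 were at least 2-fold higher (5.37%, beside 1.64% of all measured genes), H2AFY2, ZNF22, DKK1, ZWINT and CDK1 among them. MGMT and C10orf10 were the 2 at least 2-fold lower (0.98%, beside 1.13% of all measured genes). The 35 genes up to base 26746593 and the 34 up to base 63521363 (GENCODE v29, GRCh38) had medians of 0.49 each. VIM (chr10:17228259-17237593), the gene whose share V gives, lies in the first of these stretches. Whether this position affects V was not tested. The same chromosome also had a median of 0.27 in C1-sgKMT2D over C1-sgControl and of 0.25 in C1-sgEED cells over the bound. Without genes of chromosome 10, the G2/M list kept 24 higher members, and the basal list 10 lower ones.

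**Figure D5:**
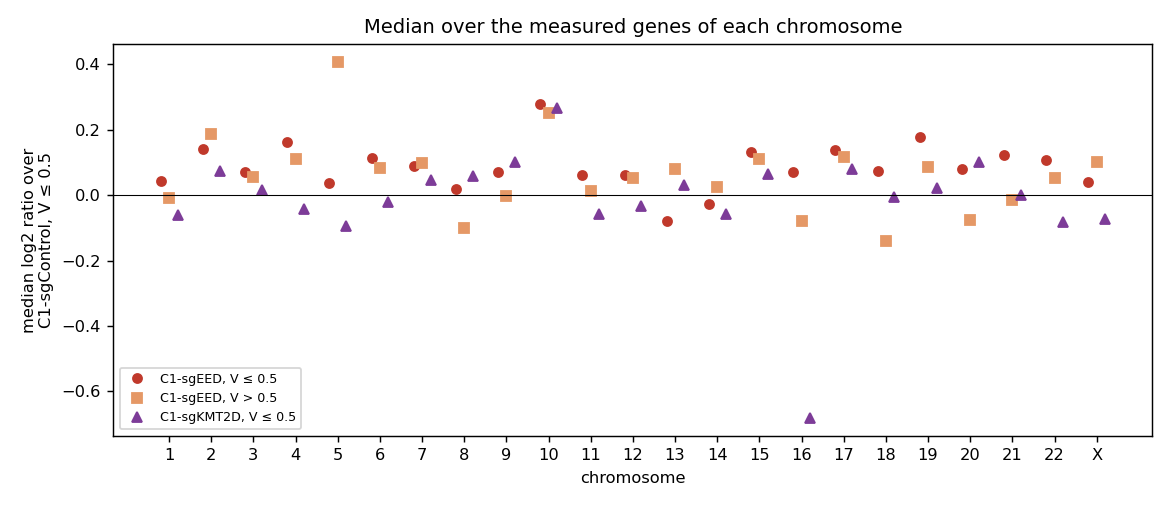
Points give, for each chromosome, the median log2 ratio of its measured genes over C1-sgControl epithelial-state cells, for C1-sgEED cells with V of at most 0.5, C1-sgEED cells over the bound and C1-sgKMT2D cells with V of at most 0.5. Chromosome 10 lies above 0.2 in all 3 groups, and chromosome 16 lies at -0.68 in C1-sgKMT2D alone.

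Chromosome 5 had a median of 0.41 in C1-sgEED cells over the bound and of 0.04 in epithelial-state C1-sgEED cells. The 2 states of the C1-sgEED line thus differed in the median of this chromosome, beside the difference in EED and SNRPN levels. What these differences reflect was not tested, and the labels do not say which clones the cells came from.

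Set against epithelial-state C1-sgKMT2D cells, of 5317 genes that reached 20 CPM in one line or both, C1-sgEED was 2-fold or more higher for 203 (3.82%) and 2-fold or more lower for 25 (0.47%). The comparisons share the C1-sgEED cells, so only the values side by side are given. Chromosome 16 had a median of -0.68 in C1-sgKMT2D over C1-sgControl and of 0.07 in C1-sgEED over C1-sgControl. IGFBP2 was 26.8-fold higher in C1-sgEED than in C1-sgKMT2D (interval 19.9 to 36.7), and CRABP2 45.5-fold higher. SAA1, at a ratio of 1.34, and CSF3, at 1.25, were not lower in C1-sgEED than in C1-sgKMT2D.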

How the data were processed

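Cells of 3 labelled lines, and cells of a further hashtag that the labels tie to no line, were pooled in 1 gene expression library with a matched hashtag library. The deposited matrix holds UMI counts, made by the authors with Cell Ranger 3.0.2 on GRCh38 per the submitters' processing notes. No source used here gives the annotation version. All members, lists and thresholds were chosen with earlier results of these data known, so none is independent evidence. Counts were summed per group and given as CPM over all genes. Log2 ratios used a pseudocount of 1 CPM, which understates the differences of low genes. Intervals at 95% were exact: Poisson for sums, conditional binomial for ratios and Clopper-Pearson for shares. UMIs of 1 library are not independent samples, so no p-value was computed. Thinned shares used 2000 UMIs per cell and left out 52 shallower C1-sgEED and 77 C1-sgControl cells. Genes named are the 15 highest and 15 lowest log2 ratios among genes of at least 20 CPM (mitochondrial genes, clone names, LINC genes and genes of V left out), KRT5, KRT17, EPCAM, IGFBP2, SNRPN and EED, up to 4 highest and 4 lowest measured members of each list, and others by position or as neighbours. Other members named were chosen after their values were seen. Cells with several hashtags failed the hashtag rule. Scrublet (scanpy 1.11.5) marked 0 of 9193 cells at its automatic threshold and so did not work. A score above 0.15 was tried instead. Doublets within a line remain. A check of CpG content over the higher and lower genes is void, because the promoter table matched 70.8% and 73.8% of them. Genes were placed on chromosomes with GENCODE v29. Python 3.11.15, numpy 2.4.6, scipy 1.17.1 and pandas 2.3.3 were used. The ratio intervals were tried on simulated Poisson counts, which is the model they assume. This checks the code only, because the simulation had no genes whose UMIs rest on a few cells. A result for 1 member of the basal list is not reported here.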

Additional observations from a re-analysis of the deposited data

Results flagged for a closer look

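Barcodes of hashtag 2 carried gene expression signal although the labels tie this hashtag to no line. By the hashtag rule 2010 barcodes belonged to it, and 1007 of 1921 scored cells had V of at most 0.5. In those cells SNRPN was at 51.3 CPM, MGMT at 0.869 CPM, IGFBP2 at 29.99 CPM, EPCAM at 81.7 CPM, SAA1 at 370 CPM and EED at 9.13 CPM. These cells entered no comparison between lines.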

How the results depend on the processing

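Of 22 alternatives, 19 planned and 3 added after seeing the data, 18 (16 planned and 2 added) gave each single gene another value, and under these the 15 highest and 15 lowest genes kept their direction. The other 4 alternatives change which genes are tested. Of these 30 genes, 27 stayed past 2-fold throughout. The exceptions were CRCT1 and CNFN, at log2 ratios of 0.49 and 0.59 without each gene's 10 top cells, and SERPINB2, at -0.80 among cells with few G2/M UMIs. Of genes at least 2-fold higher there were 58 with a pseudocount of 5 CPM, 173 with a filter of 10 CPM, 32 with 50 CPM and 580 with 3 UMIs, and of genes at least 2-fold lower 32 with 50 CPM, 143 with 3 UMIs and 95 in thinned cells. With a filter of 50 CPM fewer members are tested, and the lists gave 16 higher G2/M genes, 4 higher mesenchymal genes, 10 lower cytokine genes and 4 lower acute-phase genes. Mesenchymal genes numbered 19 with 3 UMIs. Higher G2/M genes numbered 17 when centred on the median ratio and 1 among cells with few G2/M UMIs, and lower basal genes 6 among those cells and 7 in cells of at least 5000 UMIs. The cause was not tested. No paired analysis was possible because each line is 1 sample. Depth limits the low genes: with 6210734 UMIs in C1-sgEED, genes under 10 CPM were not counted in lists.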
